A study of Gallus gallus with 18 samples.

Results

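The transcription factor genes TBXT, EOMES, MIXL1, TBX6, SNAI2 and MSGN1 were followed in the anterior primitive streak of 18 chicken embryos. Their probesets were taken by the gene symbol of the probe annotation, and older names were followed through the gene identifier. This gave 7 of the 38535 probesets on the array, with 2 for MIXL1 and 1 for each of the other genes. The GRCg7b annotation places TBXT, MIXL1 and MSGN1 on chromosome 3, EOMES and SNAI2 on chromosome 2, and TBX6 on chromosome 15, so none of the 6 genes is sex-linked. The gene it names TBX6 is the one known in older chicken work as Tbx6L, and MIXL1 is the chicken gene CMIX.

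During gastrulation, cells of the epiblast move into the primitive streak, lose their epithelial contacts and leave it as mesoderm or endoderm. TBXT (Brachyury) and EOMES are T-box factors of the streak, and MIXL1 is a paired-type homeobox factor made where mesoderm and endoderm form. SNAI2 (Slug) is a zinc finger repressor of epithelial genes that is known in the chick for its part in the exit of mesoderm from the streak, and TBX6 and the bHLH factor MSGN1 mark the paraxial mesoderm that follows.

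The embryos were 9 female and 9 male White Leghorn embryos at Hamburger and Hamilton stage 4, 1 day old, kept for 3 h in culture. From each, 1 piece of 400 by 400 micron was taken, 70% to 90% of the way along the streak. The piece was thus a mixture of streak and neighbouring tissue, and its RNA was hybridized to 1 Affymetrix chicken array after amplification. The authors assigned the sexes from the W-linked gene HINTW (their PKCIW), so its signals, 25605 to 32838 in females and 5.08 to 75.1 in males, are fixed by that choice. The study's methods state that some embryos had been electroporated. The labels do not name them, so electroporation cannot be told apart from other differences between embryos of a sex.

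Values are the authors' MAS5 signals, an arbitrary scale on which each array was set to the same trimmed mean. A signal of 128, or 7 on the log2 scale, was taken as the detection level. Between 13854 and 15324 probesets reached it in each embryo, and the 3' to 5' ratio of GAPDH was 2.27 to 3.40 in females and 2.46 to 4.15 in males. Female 9 had both the fewest such probesets (13854) and the lowest ratio (2.27). The first principal component held 17.2% of the variance, and female 9 and males 5, 6 and 8 lay farthest from its median, all at its positive end. Covariation, the lists and the genes most alike are therefore also given without these 4 embryos. The number of arrays limits the precision of every value. Levels are compared between embryos for 1 probeset at a time, except where the signals of a list are summed or probesets are ranked by brightness. Such sums and ranks follow the scale of each probeset and do not compare the levels of genes.

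Of the 7 probesets, 5 reached the detection level in at least 9 of the 18 embryos and entered the test between the sexes. They were those of TBXT, MSGN1 and SNAI2, detected in all 18 embryos, EOMES in 16, and TBX6 in 11. The brighter MIXL1 probeset was detected in 7 embryos, 4 of them female and 3 male, and the dimmer one in 2. Both MIXL1 probesets therefore stayed below the filter, and most of their values lie where the array gives little more than background.

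TBXT was bright in every embryo. In females its signal was 21977 at the lowest, 29560 at the median and 34554 at the highest, and in males 26861, 30219 and 39141. Female 9 had the lowest signal and male 3 the highest, and the ranges of the sexes overlapped. MSGN1 was bright in most embryos, at 3339, 21365 and 24060 in females and 7118, 19962 and 27318 in males. In females all embryos but female 9 lay at 18761 or more, and in males all but male 8 at 17093 or more, so that the low end in each sex was 1 embryo.

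EOMES varied several-fold among embryos of each sex. The signal was 80.5 at the lowest, 184 at the median and 656 at the highest in females, and 132, 197 and 807 in males. Female 9 (656) and female 6 (500) were far above the other females, and male 8 (807) and male 5 (573) above the other males, while females 4 and 7 were under the detection level. SNAI2 ran from 3685 through 5474 to 8528 in females and from 3378 through 5426 to 9601 in males, with female 6 and males 8, 5 and 6 at the top. Female 9, the highest for EOMES among females, lay at the female median for SNAI2.

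The brighter MIXL1 probeset had the widest spread. It read 8.36, 119 and 1359 in females and 27.7, 78.9 and 1295 in males, and its highest values came from female 9, male 8 and male 5 (904). Male 6 (485), female 6 (423), female 1 (281) and female 2 (194) were the only others over the detection level. The dimmer MIXL1 probeset rose over that level only in female 9 (143) and male 5 (142). Over the embryos of a sex the 2 MIXL1 probesets gave r = 0.07 in females (exact permutation p = 0.855; rho = -0.02) and 0.73 in males (exact permutation p = 0.0271; rho = 0.78). TBX6 stayed near the detection level throughout, at 35.1, 145 and 225 in females and 77.4, 141 and 344 in males, with male 6 the highest and female 3 the lowest.

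**Figure D1:**
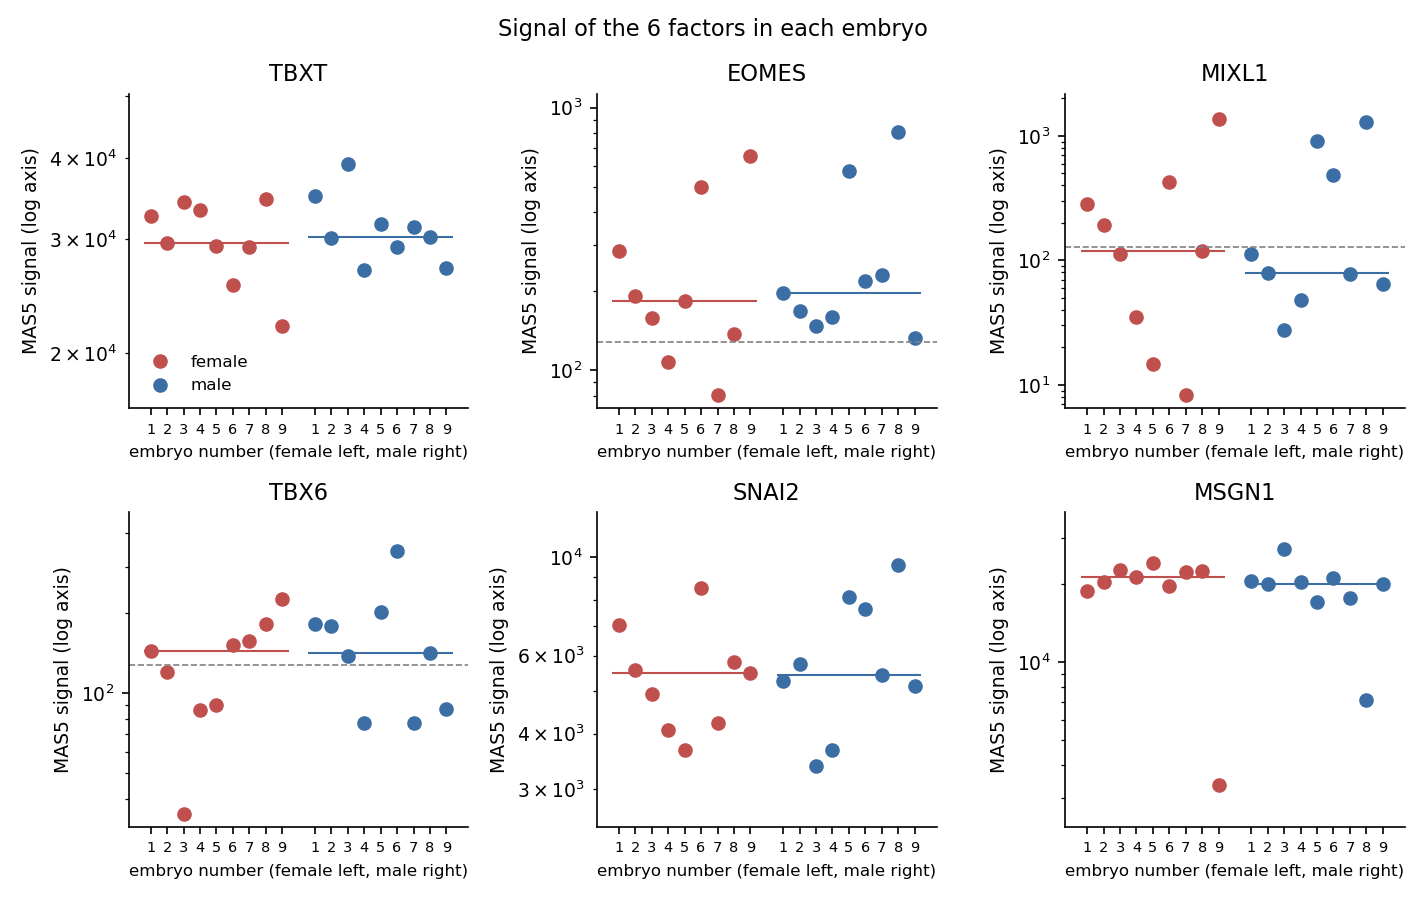
Signal of the brighter probeset of each factor in each embryo, on log axes, with 9 females on the left and 9 males on the right of each panel. Horizontal lines are medians of a sex, and the dashed line marks the detection level of 128. The high embryos for EOMES and MIXL1 are female 9 and males 5 and 8, and MSGN1 is lowest in female 9 (3339) and male 8 (7118).

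The spread between embryos of a sex was set beside that of all tested probesets. After the mean of each sex was subtracted, the SD of the log2 signal was 0.20 for TBXT, 0.45 for SNAI2, 0.74 for MSGN1, 0.76 for TBX6, 0.95 for EOMES and 2.18 for the brighter MIXL1 probeset (1.72 for the other). The median over the 14598 tested probesets was 0.30. Thus 6 of the 7 probesets varied more than the median probeset, and TBXT varied less, with 19.6% of tested probesets below it. TBXT lay near the top of the arrays, whose highest signals were 33191 to 58441. Whether this narrowed its spread was not tested. The SD of EOMES exceeded that of 97.6% of tested probesets, of TBX6 94.97%, of MSGN1 94.6% and of SNAI2 78.1%. Part of the width of MIXL1 comes from values under the detection level: with all such values raised to that level, the SD of the brighter probeset was 1.29 and that of the other 0.05. TBX6 then had 0.39. With the median at 0.28 under this floor, 5 of the 7 probesets varied more than the median.

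The study compared the sexes, and no factor passed the test of a difference between them. In limma, fitted over all 14598 tested probesets, 0 of the 5 tested member probesets passed an adjusted p of 0.05. None had an unadjusted p under 0.05, and the SAM-type test also called 0. Of all 14598 tested probesets, 1247 had an unadjusted p under 0.05 in limma, and the SAM-type test called 364. Over all tested probesets limma called 402, or 2.75%, with 361 (2.47%) higher in males and 41 (0.281%) higher in females. At such a rate a list of 5 would mostly hold no call. The paper places most of its male-biased probesets on the Z chromosome, where none of the members lies. The rate over autosomal probesets alone was not computed.

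TBXT was 0.06 higher in males on the log2 scale (SE 0.10, adjusted p = 0.937 in limma), a male to female ratio of 1.04 with a 95% interval of 0.904 to 1.20. This was the narrowest interval of the members, for a probeset near the top of the arrays. For SNAI2 the log2 difference was 0.10 (SE 0.20, adjusted p = 0.953 in limma) and the interval of the ratio 0.802 to 1.44. For EOMES it was 0.22 (SE 0.41, adjusted p = 0.951 in limma), with a ratio of 0.636 to 2.12. TBX6 and MSGN1 gave 0.26 (SE 0.33, adjusted p = 0.915 in limma) and 0.05 (SE 0.33, adjusted p = 0.991 in limma), with ratios of 0.736 to 1.94 and 0.648 to 1.67. The intervals of EOMES, TBX6 and MSGN1 thus leave room for differences of over 1.5-fold that 9 embryos of a sex could not show. MIXL1 was tested only without the filter, where the log2 difference was 0.47 (SE 0.98, adjusted p = 0.984 in limma) and the ratio 0.335 to 5.74. The exact permutation test over all splits into 9 and 9 embryos gave p between 0.494 (TBX6) and 0.899 (MSGN1) for the 6 genes.

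**Figure D2:**
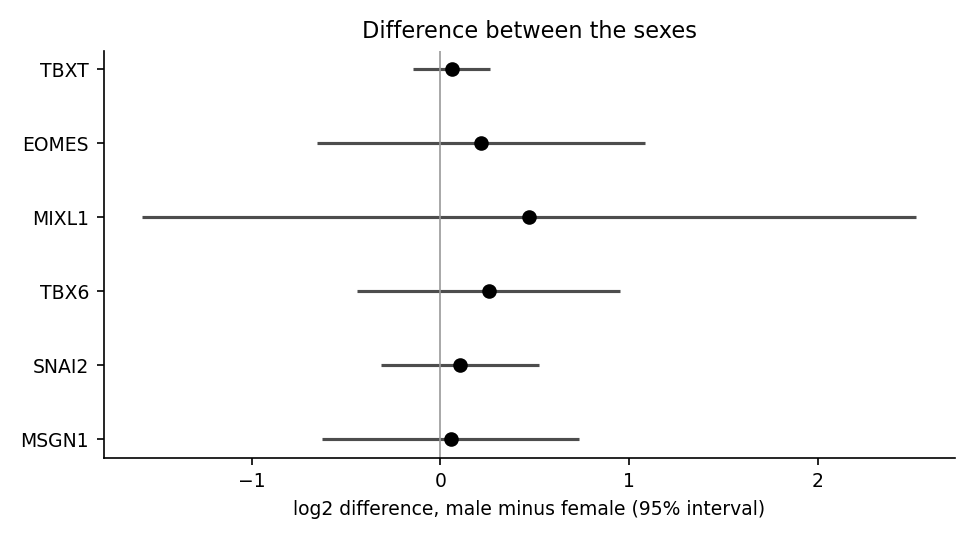
Difference between the means of 9 males and 9 females in log2 signal, male minus female, with 95% intervals from limma. All intervals hold 0, from the narrow one of TBXT (0.06) to the wide one of MIXL1 (0.47), whose probeset was below the filter.

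The next question was whether the factors vary together between embryos of a sex. Covariation was measured with Pearson's r and Spearman's rho of the log2 signals over the 9 embryos of a sex, with 15 pairs of genes in each sex. Exact permutation p-values over all pairings were adjusted over all 30 relations. In males 6 pairs passed an adjusted p of 0.05 and in females 3, while in each sex 6 pairs had an unadjusted p under 0.05. By rho 3 pairs passed in males and 1 in females.

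EOMES and the brighter MIXL1 probeset rose and fell together in both sexes. In females r was 0.86 (exact permutation p = 0.00354, adjusted 0.0240; rho = 0.88, p = 0.00308) and in males 0.90 (exact permutation p = 0.000849, adjusted 0.0127; rho = 0.85, p = 0.00607). Over all 18 embryos with sex means subtracted r was 0.87, and 9 of 7863 other genes had an r with EOMES at least as high. The pair kept its call in males when any 1 embryo was left out (r 0.84 to 0.96). In females it lost the call without female 9, with r = 0.78. With the dimmer MIXL1 probeset, chosen as an alternative after the data were seen, neither passed, at r = 0.27 in females and 0.79 in males.

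SNAI2 followed the same embryos. In males its r with MIXL1 was 0.95 (exact permutation p = 3.0e-05, adjusted 0.000909; rho = 0.95, p = 0.000353), and with EOMES 0.81 (exact permutation p = 0.00639, adjusted 0.0240; rho = 0.87, p = 0.00451). In females the 2 relations did not pass, with r = 0.75 for MIXL1 (exact permutation p = 0.0194, adjusted 0.0581; rho = 0.77, p = 0.0214) and 0.65 for EOMES (exact permutation p = 0.0600, adjusted 0.138; rho = 0.55, p = 0.133). Female 9, with high MIXL1 and a median SNAI2, is the embryo that sets them apart: without it r was 0.90 and 0.80, and the pair of MIXL1 and SNAI2 passed. Among males EOMES and SNAI2 lost the call without male 1 (r = 0.81) or male 8 (r = 0.71), and MIXL1 and SNAI2 kept it without any 1 embryo (r 0.93 to 0.97).

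MSGN1 went the other way. Its r with EOMES was -0.69 in females (exact permutation p = 0.00629, adjusted 0.0240; rho = -0.67, p = 0.0589) and -0.83 in males (exact permutation p = 0.00274, adjusted 0.0240; rho = -0.65, p = 0.0666). With MIXL1 it was -0.65 in females (exact permutation p = 0.00442, adjusted 0.0240; rho = -0.80, p = 0.0138) and -0.72 in males (exact permutation p = 0.00575, adjusted 0.0240; rho = -0.57, p = 0.121). With SNAI2 only males passed, with r = -0.72 (exact permutation p = 0.00766, adjusted 0.0255; rho = -0.68, p = 0.0503), against -0.14 in females (exact permutation p = 0.630, adjusted 0.700; rho = -0.58, p = 0.108). None of these relations of MSGN1 passed by rho after adjustment.

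The calls of MSGN1, though not always the size of r, depended on single embryos. Without female 9, r with EOMES was -0.61 with MIXL1 -0.73 and with SNAI2 -0.79, and none passed. The pair of MIXL1 and MSGN1 also lost its call without female 4 or female 5 (both r = -0.65). In males the call of EOMES and MSGN1 was lost without male 5 (r = -0.94) or male 8 (r = -0.61), and that of MIXL1 and MSGN1 without male 3 (-0.65), male 5 (-0.79) or male 8 (-0.56). SNAI2 and MSGN1 lost theirs without male 1, 3, 4, 5, 8 or 9, at r between -0.76 and -0.64.

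No pair with TBXT or TBX6 passed with the signals as deposited. In females TBXT gave r = -0.74 with EOMES (exact permutation p = 0.0239, adjusted 0.0651; rho = -0.53, p = 0.148) and 0.77 with MSGN1 (exact permutation p = 0.0314, adjusted 0.0785; rho = 0.50, p = 0.178). Both passed without female 1 (r = -0.81 and 0.78), and the pair with EOMES also without female 7 (r = -0.89), while without female 9 they were -0.51 and 0.24. In males the same relations were 0.01 (exact permutation p = 0.983; rho = 0.25, p = 0.521) and 0.26 (exact permutation p = 0.473; rho = 0.08, p = 0.843). The highest r of TBX6 was 0.54, with MIXL1 in males (exact permutation p = 0.134, adjusted 0.256; rho = 0.67, p = 0.0589). Of the 15 pairs, 12 had the same sign of r in both sexes. Whether any r differed between the sexes was not tested. With signals under the detection level raised to it, 2 pairs of TBXT passed in females, with EOMES (r = -0.83) and with MIXL1 (r = -0.85, against -0.47 as deposited). Under this floor MIXL1 and SNAI2 gave r = 0.51 in females (adjusted exact permutation p = 0.281) and 0.86 in males (adjusted exact permutation p = 0.0198). EOMES and MIXL1 gave 0.95 in females and 0.92 in males, and both passed.

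**Figure D3:**
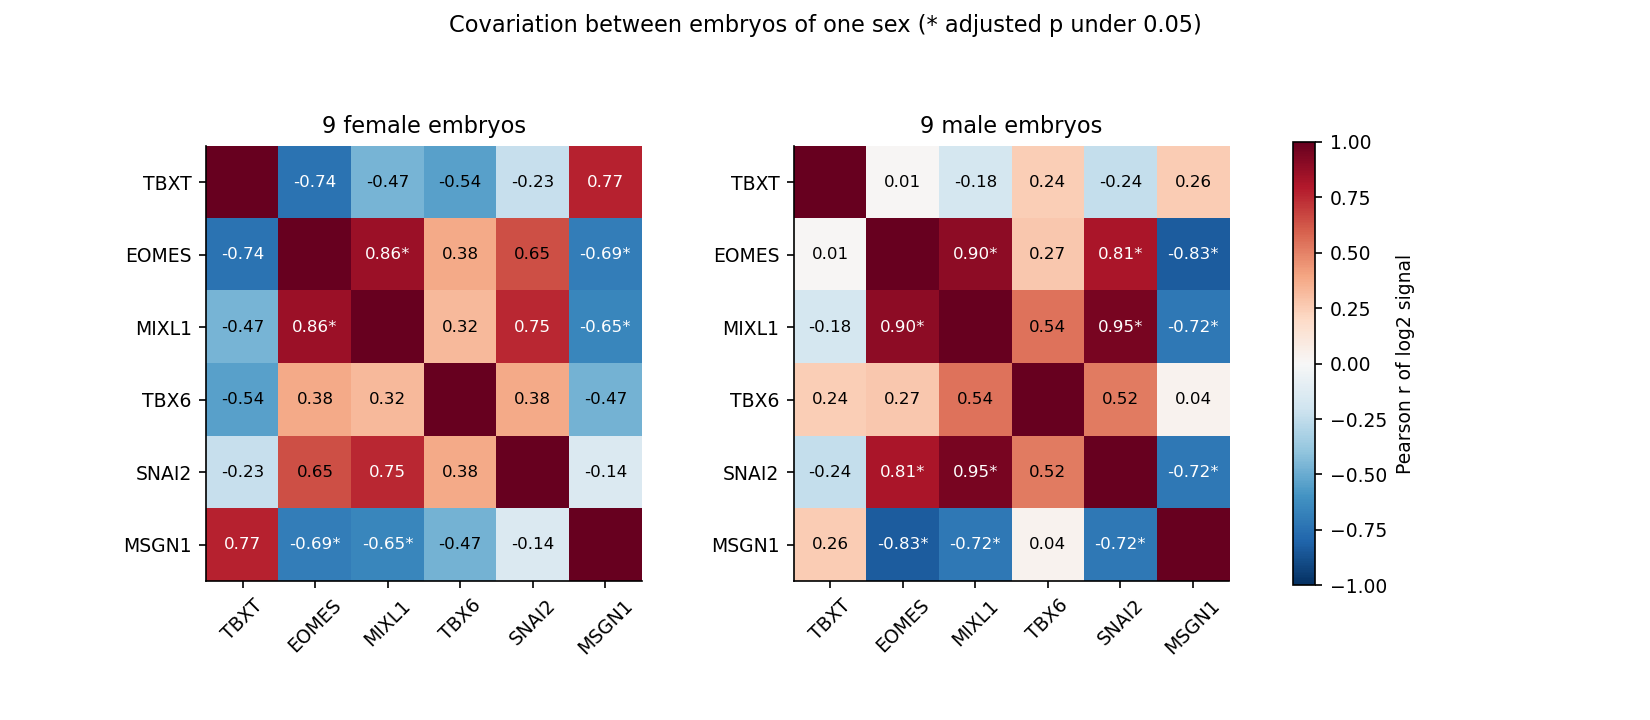
Pearson r of log2 signals for each pair of factors over 9 female embryos (left) and 9 male embryos (right), from blue at -1 to red at 1. An asterisk marks an adjusted exact permutation p under 0.05, which holds for 3 pairs in females and 6 in males, all among EOMES, MIXL1, SNAI2 and MSGN1.

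The relations were next measured without the embryos at the ends. When the 2 embryos farthest from the median of the gene on the x axis were left out of each pair, 1 pair passed in each sex. It was MIXL1 and SNAI2 in both, with r = 0.95 in females and 0.91 in males. In that pair MIXL1 then lay over the detection level only in females 1, 2 and 6 and in male 6. Without their 2 farthest embryos EOMES and MIXL1 gave 0.71 and 0.65, EOMES and MSGN1 -0.50 and -0.45, and MIXL1 and MSGN1 -0.80 and -0.35 in females and males. In males EOMES and SNAI2 gave 0.60, and SNAI2 and MSGN1 -0.34. Of the 8 called pairs that lost their call with 7 embryos, that of MIXL1 and MSGN1 in females had an r of larger size than with 9, and the others one of smaller size.

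Without female 9 and males 5, 6 and 8, which left 8 females and 6 males, no pair passed in either sex. With 6 males only a very small exact p could survive the adjustment. MIXL1 and SNAI2 in males, at r = 0.88, had an exact permutation p of 0.0153 (adjusted 0.130). A lost call thus cannot be told apart from the effect of fewer embryos on the test. The signs of the called pairs stayed as they were. MIXL1 and SNAI2 gave 0.90 in females and 0.88 in males, EOMES and MIXL1 0.78 and 0.56, and EOMES and MSGN1 -0.61 and -0.53. In the 6 males left every MIXL1 signal was under the detection level, with 113 the highest. The male r values of MIXL1 thus rest on values little over background. The factors also moved with the first principal component of all tested probesets. With sex means subtracted, r with it was 0.90 for MIXL1, 0.86 for EOMES, 0.75 for SNAI2 and 0.51 for TBX6, against -0.80 for MSGN1 and -0.60 for TBXT. With this component regressed out in each sex, none of the 9 called pairs passed, and 1 other pair did, SNAI2 and MSGN1 in females at r = 0.92.

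**Figure D4:**
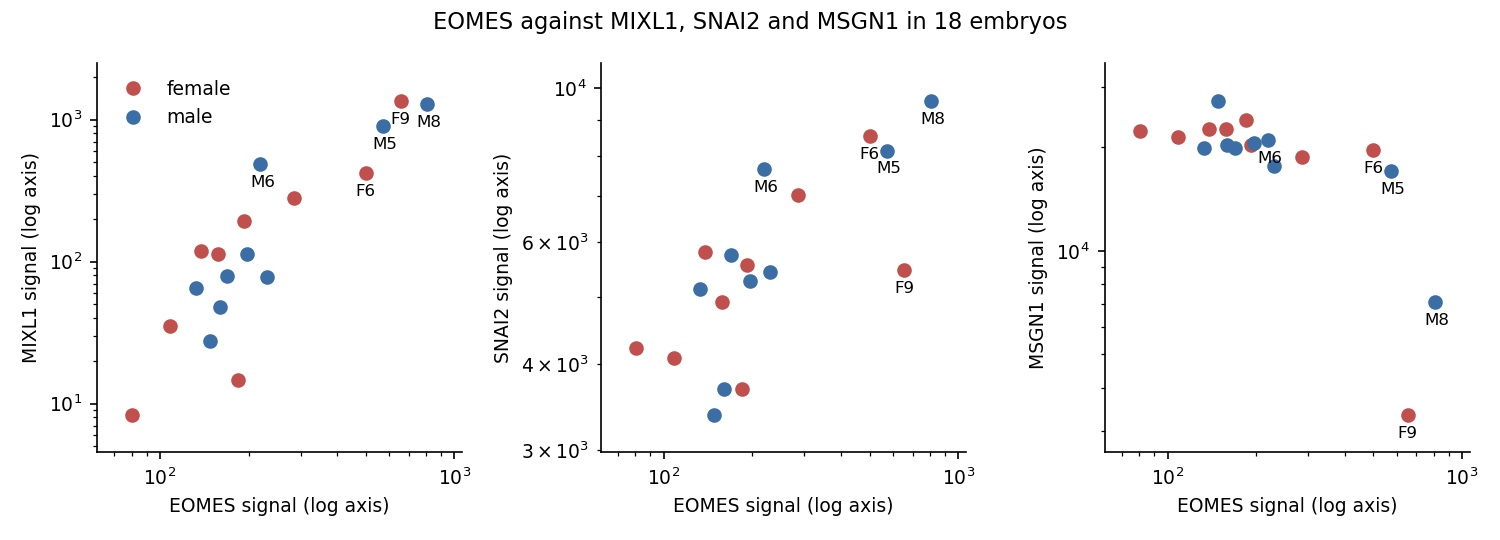
Signal of MIXL1, SNAI2 and MSGN1 against that of EOMES in 18 embryos, on log axes, with females (F) in red and males (M) in blue. Females 6 and 9 and males 5, 6 and 8 are named. Within each sex MIXL1 is highest where EOMES is highest, though only 7 of 18 MIXL1 values lie over the detection level. F9 lies at the female median for SNAI2, and F9 and M8 are lowest for MSGN1.

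Markers of neighbouring tissues moved with these embryos. The summed signal of the endoderm list (11 genes with a probeset, with SOX17, an endoderm determinant, giving 73.1% of the sum) ran from 11099 to 35801 in females and from 19579 to 42532 in males. It was highest in female 9 and male 8. The sum of the node and organizer list (12 genes, led by the BMP antagonist CHRD) ran from 1569 to 11138 in females and from 2391 to 11562 in males, again with female 9 and male 8 at the top. Of these lists GATA4, FOXA1, CER1, HNF4A, GSC, SHH, ADMP, SOX9 and TBX2 reached the detection level in too few embryos for the filter, but their signals are part of the sums. At the highest CER1 read 7707, GSC 3319 and ADMP 1495, while the rest reached 130 (GATA4) at most. The paraxial mesoderm list (15 genes, with the Notch ligand DLL1 giving 49.8% of the sum) was lowest in the same embryos, at 16476 in female 9 and 26703 in male 8, against highs of 67153 and 67340. Without the 4 embryos the endoderm sums ran from 11099 to 22726 in females and from 19579 to 23485 in males, and the paraxial sums from 53504 to 67153 and from 55855 to 67340. Endoderm and node were not alone: the epiblast and early neural sum was also highest in female 9 (55799) and male 8 (61327), as was that of the relatives of the factors (6413 and 8558, mostly OTX2), and the non-neural ectoderm sum was highest in female 9 (33434). In these bulk samples fewer cells of a type and less RNA per cell cannot be told apart, and the part of these markers in the covariation was not tested.

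The genes most like each factor were ranked by r over the 18 embryos with sex means subtracted, among 7863 or 7864 genes. For EOMES they were JARID2, a partner of the Polycomb repressive complex (r = 0.93), GHRH, a hypothalamic hormone gene (0.91), and HHEX, a homeobox gene of the anterior endoderm (0.89). Over the 18 embryos GHRH read 37.9 to 434, so part of its range lay under the detection level. JARID2 ran from 1506 through 2443 to 7198 in females and from 1714 through 2642 to 6507 in males, with female 9 and male 8 the highest, as for EOMES. For MIXL1 they were CFC1, a Nodal co-receptor (0.96), FBXL17, an F-box gene (0.95), and MYH9, a non-muscle myosin heavy chain (0.93). CFC1 ran from 2499 to 12532 in females and from 4428 to 17524 in males, highest in female 9 and male 8, and it stood well over the detection level in every embryo, where MIXL1 did not. Without the 4 embryos r was 0.88 for JARID2, 0.92 for GHRH and 0.76 for HHEX with EOMES, and 0.91 for CFC1, 0.89 for FBXL17 and 0.92 for MYH9 with MIXL1. MIXL1 then lay over the detection level only in females 1, 2 and 6.

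For SNAI2 the most alike were AKAP12, a scaffold of protein kinase A (0.93), PPP1R14C, an inhibitor of protein phosphatase 1 (0.92), and DGAT2, an enzyme of triglyceride synthesis (0.91). AKAP12 was highest in female 6 (23976) and male 6 (24435). DGAT2 read 41.1 to 349 over the 18 embryos, in part under the detection level. The 3 genes had r of 0.92, 0.93 and 0.86 with SNAI2 when the 4 embryos were left out. For MSGN1 they were DLL1 (0.99), the receptor tyrosine kinase gene LTK (0.91) and the zinc finger factor gene ZEB2 (0.90). LTK read 22.5 to 223 and ZEB2 78.5 to 3253, so the lowest values of both lay under the detection level. DLL1 had 1167, 30939 and 35430 as its lowest, median and highest signal in females and 6706, 28021 and 37708 in males, lowest in female 9 and male 8. Without the 4 embryos DLL1 kept an r of 0.70 with MSGN1, while LTK fell to 0.04 and ZEB2 to 0.39. For TBX6 they included FAM159A (0.77) and the glycosyltransferase gene GALNT3 (0.71), at 0.71 and 0.56 without the 4 embryos.

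TBXT was most like RPL3, a ribosomal protein gene (0.96), SLC25A6, an ADP/ATP carrier of mitochondria (0.96), and H3F3B, a histone H3.3 gene (0.95). All 3 lie at the bright end of the arrays, as does TBXT, whose mean signal ranks 29 of 38535 probesets. The median r of TBXT with the 100 brightest genes was 0.82, against 0.02 with all genes. After quantile normalization, which gives every array the same distribution, that median was 0.05, and r was 0.76 for RPL3, 0.24 for SLC25A6 and 0.74 for H3F3B. With the deposited scaling r stayed at 0.94, 0.98 and 0.96 when the 4 embryos were left out. Quantile normalization took the SD of TBXT itself from 0.20 to 0.10 on the log2 scale. For EOMES, TBX6, SNAI2 and MSGN1 the SD moved little under the same step, to 0.95, 0.80, 0.45 and 0.74. Their relation to the bright end moved as well: the median r with the 100 brightest genes went from 0.47 to -0.01 for MSGN1 and from -0.38 to -0.09 for EOMES. The relation between EOMES and MSGN1 themselves still passed after quantile normalization. It was r = -0.68 in females (adjusted exact permutation p = 0.0301) and -0.84 in males (adjusted exact permutation p = 0.0112).

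Other genes of these pathways came from 9 lists, with 78 genes tested. None passed the test between the sexes in limma (0 adjusted calls, 4 with an unadjusted p under 0.05, 0 by the SAM-type test). Over all 14598 tested probesets these counts were 402, 1247 and 364. Beside EOMES the lists split. Of 22 streak signals and targets, 11 had r of -0.6 or lower with EOMES and 5 had 0.6 or higher, and the median was -0.53. Of 10 paraxial mesoderm genes, 5 were at or under -0.6 and 1 at or over 0.6, with a median of -0.56. Of 7 endoderm genes and of 7 node genes, 3 each were at or over 0.6 and none at or under -0.6, with medians of 0.58 and 0.49. FOXA2 (0.69) is in both lists and is counted in each. Over all 7863 genes 3.94% were at or over 0.6 and 4.63% at or under -0.6, with a median of -0.05.

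The split was narrower without the 4 embryos. Over the other 14, of the 22 streak signals 4 were at or under -0.6 and 2 at or over 0.6, with a median of -0.23. Of the 10 paraxial genes none was at or under -0.6 and 1 was at or over 0.6, with a median of -0.07. Of the 7 endoderm genes 1 and of the 7 node genes 2 were at or over 0.6, with a median of 0.49 in both. That median is the same gene, FOXA2, which is in both lists. Over all genes 2.33% were then at or over 0.6 and 2.37% at or under -0.6.

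The next genes were named with their values in view. The caudal homeobox genes CDX1, CDX4 and CDX2 had r = -0.86, -0.84 and -0.83 with EOMES, and the ligand genes WNT5A and WNT3A -0.82 and -0.80. CDX1 had 355, 1680 and 2921 as its lowest, median and highest signal in females and 445, 1322 and 3711 in males, lowest in female 9 and male 8. On the other side stood CFC1 (0.83), the Nodal antagonist gene LEFTY1 (0.80), the homeobox genes LHX1 (0.85) and OTX2 (0.84), and GATA6, a factor of endoderm (0.83). LEFTY1 had 102, 244 and 6365 in females and 139, 989 and 7806 in males, and it was highest in female 6 and male 5. MESP1, another factor of early mesoderm, was the 1 paraxial gene with r of 0.6 or higher (0.70). Without the 4 embryos r with EOMES was -0.71 for CDX1, -0.75 for CDX4, -0.53 for CDX2, -0.64 for WNT5A and -0.65 for WNT3A, and 0.65 for CFC1, 0.69 for LEFTY1, 0.59 for LHX1, 0.62 for OTX2, 0.57 for GATA6 and 0.76 for MESP1.

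With MSGN1 the same lists lay the other way. Of the 10 paraxial mesoderm genes 5 had r of 0.6 or higher and 1 had -0.6 or lower, with a median of 0.59, and of the 7 endoderm genes none and 5, with a median of -0.68. Over all genes 4.59% were at or over 0.6 and 3.33% at or under -0.6, and the median was 0.05. After DLL1, the highest of the streak and paraxial genes were the Notch modifier gene LFNG (0.90), SP8 (0.88), WNT3A (0.83) and FGF3 (0.83), all lowest in female 9 and male 8. The lowest over all lists were HHEX (-0.89), SALL4 (-0.88), GATA6 (-0.81) and OTX2 (-0.78). All of these genes were named by their r with MSGN1, with the values in view. HHEX read 5089 in female 9 and 5611 in male 8, against medians of 616 and 573 in the 2 sexes. These r values share the 2 low embryos of MSGN1 and carry no test. Over the 14 other embryos the medians with MSGN1 were -0.04 for the paraxial list, with 1 gene at or over 0.6, and -0.07 for the endoderm list, with none at or under -0.6. Over all genes 4.55% were then at or over 0.6 and 3.98% at or under -0.6, with a median of 0.03. LFNG then had 0.13, SP8 0.09, WNT3A 0.53, FGF3 0.40, HHEX -0.51, GATA6 -0.07 and OTX2 -0.53, and SALL4 turned to 0.67.

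**Figure D5:**
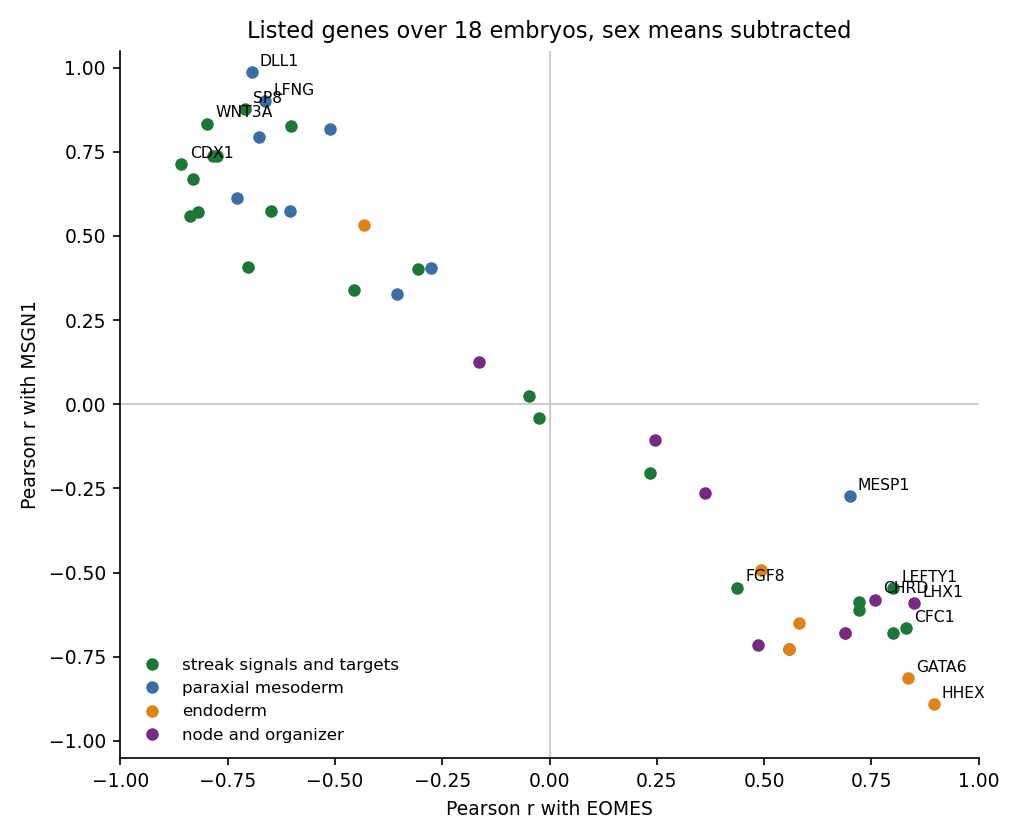
Pearson r with EOMES (x axis) and with MSGN1 (y axis) over 18 embryos, sex means subtracted, for each tested gene of 4 lists (22 streak signals and targets, 10 paraxial mesoderm, 7 endoderm and 7 node genes, some in more than 1 list). Many paraxial genes, such as DLL1 and LFNG, lie at the upper left and many endoderm and node genes, such as HHEX and LHX1, at the lower right. Exceptions are MESP1 of the paraxial list and CXCR4, in both the paraxial and the endoderm list, at the lower right. FRZB of the endoderm list and NOG of the node list lie at the upper left. EOMES and MSGN1 themselves gave r = -0.72. The separation rests in part on female 9 and males 5, 6 and 8: without them the median r with MSGN1 was -0.04 for paraxial and -0.07 for endoderm genes.

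The listed genes were also set beside TBXT. The highest and lowest r in each list were 0.61 (SP8 and CDX1) and -0.60 (GDF3 and FGF18) among the streak signals, 0.63 (DLL1) and 0.54 (FOXC2) against -0.29 (MESP1) and -0.26 (CXCR4) among paraxial genes, and 0.87 (CLDN1) and 0.71 (FN1) against -0.51 (SNAI1) and -0.45 (RHOA) among genes of the epithelial to mesenchymal transition. Endoderm genes ran from GATA5 (-0.52) and HHEX (-0.51) to SOX17 (0.13) and FRZB (0.30), and node genes from CHRD (-0.59) and NOTO (-0.40) to NOG (-0.06) and GPC4 (0.46). Epiblast genes ran from OTX2 (-0.43) and SALL4 (-0.40) to SOX3 (0.57) and GMNN (0.61). The lateral mesoderm list gave TAL1 (-0.33), KDR (0.10), HBE (0.30) and LMO2 (0.62), and the ectoderm list KRT24 (-0.38), DLX5 (-0.22), TFAP2A (0.22) and MSX2 (0.43). Among relatives of the factors OTX2 alone was tested, while 10 other T-box genes and GSC had no probeset past the filter. Over the 14 other embryos r with TBXT was 0.91 for DLL1, 0.85 for CLDN1, 0.60 for FN1, 0.55 for CDX1 and 0.48 for SP8. DLL1, CLDN1 and FN1 are bright probesets as well, with DLL1 at a mean of 27732 in females and 27053 in males. The part of the arrays' bright end in these values was not tested for single listed genes.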

How the data were processed

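Per the labels and the study's methods, RNA of each embryo was amplified in 2 cycles and hybridized to an Affymetrix chicken array. The authors deposited MAS5 signals, which are background-corrected intensity values on a linear scale, with the 2% trimmed mean of every array set to 500. The submitters' processing notes name MAS5 and affy without versions. The signals were used as deposited and turned to log2 with no constant.

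The 96 control probesets were left out. Present calls were not used here, so a filter of log2 signal of at least 7 in at least 9 of 18 embryos stood in for them, which left 14598 probesets. Of these 11705 read 1 gene, 69 several and 2824 none. Where a gene had several probesets, the brightest was used for covariation. Sexes were compared with limma 3.58.1 in R 4.3.3, 2-sided, with Benjamini-Hochberg adjustment over all tested probesets. Covariation used exact permutation tests in Python 3.11.15 with SciPy 1.17.1, adjusted over 30 relations. Both were checked on simulated data.

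The labels give replicate numbers but do not say that same-numbered embryos are pairs. Deviations of same-numbered females and males correlated between -0.24 and 0.20, over 0.1 in 4 of 9 pairs. They were not compared with differently numbered embryos, and other groupings of the arrays were not tested. No 2 arrays were duplicates (r 0.917 to 0.966). Alternatives were a SAM-type test with 100 permutations, after the study's SAM, other filters and transformations, quantile normalization, array weights, a replicate block, 1 probeset for each gene, and sets of embryos left out. A floor at the detection level, the other MIXL1 probeset and the lists without 4 embryos were added after the data were seen.

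The 6 genes and the gene lists were chosen with earlier results of these data known. Genes are named by a rule: the members, listed genes past the test, the 3 genes most like each member, and the 2 highest and 2 lowest r with TBXT in each list. 1 gene most like TBX6 is not reported here. Genes named outside the rule were picked with their values in view. KRT24 is listed as KRT19, an older name. No sequences of the genes were used here.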

Additional observations from a re-analysis of the deposited data

Results flagged for a closer look

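The signal of MSGN1 in 1 embryo of each sex lay far from the others. In females the lowest was female 9, at 3339, with the next female at 18760. On the log2 scale this gap made up 0.874 of the range. In males the lowest was male 8, at 7118, with the next at 17090, a gap of 0.651 of the log2 range. Both exceed Dixon's critical value for 9 samples. These were 2 of 14 groups examined (7 probesets in 2 sexes), and chance flags about 1 in 20. Both embryos also had the highest EOMES and MIXL1 signals of their sex, and the lowest DLL1.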

How the results depend on the processing

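No member probeset passed the test between the sexes under any of the alternatives run. The count higher in males was 221 of 7864 with 1 probeset for each gene, against 361 of 14598 in the main fit. It was 333 to 359 when 1 embryo was left out. The count higher in females was 17 of these 7864 with 1 probeset for each gene, against 41 of 14598 in the main fit. It was 18 with the stricter filter, which tested fewer probesets, and 34 to 47 without 1 embryo. With the replicate block 323 were higher in males and 35 in females, and the block changed no call of a member; the embryos share only a number.

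The direction of the small sex differences was not stable. On the log2 scale TBXT was -0.0049 after quantile normalization. Without the 4 embryos apart on the first component EOMES was -0.060, SNAI2 -0.17, MSGN1 -0.043 and MIXL1 (no filter, 0.47 with all embryos) -0.31, and with array weights MSGN1 was -0.044. When 1 embryo was left out EOMES ran from -0.0041 (without male 8) to 0.43, and MSGN1 from -0.24 (without female 9) to 0.22, with a change of sign also without male 3. MIXL1 ran from 0.011 to 0.93.

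Counts of covarying pairs depended on the embryos and on the measure. After quantile normalization the same 3 pairs passed in females and the same 6 in males. These pairs also passed with 16 added to each signal before log2. In females 3 became 1 with rho, 5 with the floor (TBXT with EOMES and with MIXL1 gained), 1 without the 2 farthest embryos, 0 without the 4 embryos, 1 with the first component regressed out and 0 with the other MIXL1 probeset. In males 6 became 3 with rho, 1 without the 2 farthest, and 0 without the 4 embryos, with the component regressed out or with the other MIXL1 probeset. The other MIXL1 probeset cannot change r in pairs without MIXL1. Of the called pairs without MIXL1, EOMES and MSGN1 in females kept r = -0.69. In males EOMES and SNAI2 kept 0.81, EOMES and MSGN1 -0.83, and SNAI2 and MSGN1 -0.72. Their calls were lost only through the adjustment, which was rerun over all relations. It gave an adjusted exact permutation p of 0.0575 for each. Where embryos were left out, their lower number alone makes a call harder to reach. Leaving out 1 embryo gave 1 (without female 9) to 5 (without female 1) in females, and 2 (without male 8) to 6 in males, with 3 without male 5.

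With the component regressed out, r in females turned to 0.61 for EOMES and MSGN1, 0.46 for MIXL1 and MSGN1, 0.92 for SNAI2 and MSGN1 and 0.032 for TBXT and EOMES. With the other MIXL1 probeset, MIXL1 and SNAI2 gave -0.37. In males TBXT and MSGN1 gave -0.19 after quantile normalization and -0.32 without the 2 farthest embryos. Without 1 embryo they ran from -0.080 to 0.53, and TBXT and EOMES from -0.16 to 0.34, with 0.54 after quantile normalization and 0.64 without the 2 farthest. For these changes the cause was not tested. Signals near the detection level limit MIXL1, TBX6 and EOMES.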
